A study of Homo sapiens with 4 samples.

Results

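The respiratory chain members were the 183 probe sets, of 97 genes, whose single gene symbol names a subunit of the mitochondrial oxidative phosphorylation system, out of 41091 probe sets with 1 gene symbol and 54675 on the array. They were chosen by symbol. The mitochondrial genome contributed 10 probe sets of 7 genes (ND2, ND4, ND6, COX1, COX2, COX3 and ATP6), and the nucleus 151 probe sets of 77 subunit genes. The same symbol prefixes also brought in 16 probe sets of 8 NDUFAF assembly factors, 4 probe sets of 3 noncoding RNAs and 2 probe sets of 2 pseudogenes. The comparison of the genomes was set up because the ratios of the mitochondrial genome genes in A549 were already known, so those ratios are given as a description with no test.

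Messenger RNA levels were read on Affymetrix 1-colour arrays from 2 human lung cancer lines, A549 (adenocarcinoma) and NCI-H358 (bronchioloalveolar carcinoma). A line held either an empty vector or one that expresses CHST11, an enzyme of the Golgi that sulfates chondroitin, and all 4 cultures were stably transduced and had gone through antibiotic selection. Each pairing of line and vector was hybridised once, so a difference between vectors within a line had no replicate. Having 1 array per group sets the precision. The vector's promoter is not given in the sources used here, and nothing in the labels said whether a culture was 1 clone or a pool. The values are bulk signals, so fewer cells holding a transcript and less transcript per cell cannot be told apart.

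The respiratory chain passes electrons from NADH (complex I) and succinate (complex II) through complex III to oxygen at complex IV, and ATP synthase (complex V) uses the proton gradient this builds. Complexes I, III, IV and V are assembled from subunits of both genomes: the mitochondrial genome encodes core membrane subunits, and the nucleus encodes complex II and all the remaining subunits. The mitochondrial messages are cut from long transcripts of each strand and do not pass through the nuclear promoters, so the messages of the 2 genomes are made by separate machinery.

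The median signals of the arrays lay between 15.9 and 16.31, and the log2 signals correlated with r = 0.9961 between the A549 arrays and 0.996 between the NCI-H358 arrays. The CHST11 probe set 219634_at had signals of 129 and 343.5 in A549 and of 220.1 and 1058 in NCI-H358 with the empty and the CHST11 vector, while 226368_at and 226372_at lay within log2 0.16 of the empty vector level in both lines. Epithelial markers were above the filter described below on each array (7 of the 8 in A549, all 8 in NCI-H358), and among markers of other cell types the leukocyte list held 2 to 3 of 9 genes above it on each array, the fibroblast list 1 to 2 of 7 and the endothelial list 1 of 5. Among the epithelial markers EPCAM had its log2 ratio of CHST11 over empty vector at -0.77 in A549 and at 0.26 in NCI-H358, and its part in the results was not tested. The summed leukocyte markers were 156.2 and 175.3 in A549 and 639.2 and 588.1 in NCI-H358, where LCP1 gave 438.2 and 403.8 and CORO1A 83.49 and 83.59, while PTPRC was at most 5.694 on the 4 arrays. Their part in the line differences was not tested.

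A probe set was called measured in a line when either of the line's 2 arrays gave a signal of 27 or more, the 60th percentile over the whole series, and signals were floored at 16.14 before log2 was taken. By this rule 138 members were measured in A549, 135 in NCI-H358 and 140 in at least 1 line, and 43 were measured in neither. The 8 genes with no measured probe set were the subunit genes ATP5MF, COX4I2, COX6A2, COX7A1 and COX8C, the antisense RNAs NDUFB2-AS1 and NDUFV2-AS1, and the pseudogene COX6A1P1. COX6A2 and COX7A1 are the heart and muscle forms of their subunits, COX4I2 a form known from lung, and COX8C a form known from testis. As a gauge of measurement scatter, log2 ratios of different probe sets of a gene had an SD of 0.158 in A549 (5117 genes) and 0.173 in NCI-H358 (5150 genes). This gauge does not cover the spread between cultures.

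In A549 the signals of the mitochondrial genome stood higher with CHST11 at every measured probe set, and those of the nuclear subunits lay around their empty vector level. The 9 measured mitochondrial genome probe sets had log2 ratios of CHST11 over empty vector from 0.53 to 0.86, with a median of 0.73. The 114 measured nuclear subunit probe sets ran from -0.26 to 0.29 with a median of -0.02, so the 2 ranges did not overlap. In NCI-H358 the mitochondrial genome probe sets ran from -0.30 to 0.08 with a median of -0.20, and the 112 nuclear ones from -0.36 to 0.44 with a median of 0.00. The median over all measured probe sets was 0.02 in A549 and 0.01 in NCI-H358.

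ND2, a membrane subunit of complex I, had signals of 1698 with the empty vector and 3079 with CHST11 in A549, and of 3186 and 2723 in NCI-H358. The A549 difference was 1.81-fold (log2 0.86) and the NCI-H358 ratio was log2 -0.23. The A549 empty vector array was the low one of the 4 arrays, and the other 3 lay between 2723 and 3186. ND4, another proton-pumping membrane subunit of complex I, had 2 probe sets. At 224372_at its signals were 1493, 2571, 2648 and 2158 in the order A549 then NCI-H358, each first with the empty and then with the CHST11 vector. At 224373_s_at they were 2287, 3711, 3823 and 3471 in the same order. Both gave the same picture as ND2, with log2 ratios of 0.78 and 0.70 in A549 and of -0.30 and -0.14 in NCI-H358.

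COX1, the catalytic heme and copper subunit of complex IV, had signals of 3384 and 5998 in A549 and of 2880 and 2515 in NCI-H358. Here the A549 CHST11 array was the high one, 1.77-fold above its empty vector array, and both NCI-H358 arrays lay below both A549 arrays. COX2, which receives electrons from cytochrome c, had signals of 3669, 5924, 4139 and 3557 at 1553569_at and of 3856, 6398, 4371 and 3687 at 1553570_x_at, in the order used for ND4. Its A549 ratios were log2 0.69 and 0.73, and its NCI-H358 ratios -0.22 and -0.25. ATP6, the subunit through which protons enter complex V, had signals of 2029 and 3207 in A549 and of 2506 and 2379 in NCI-H358, log2 ratios of 0.66 and -0.08. Its second probe set, 242131_at, was at most 12.13 on the 4 arrays and was not measured.

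The remaining mitochondrial genome probe sets were dim. COX3, a core subunit of complex IV, had signals of 36.23 and 52.35 in A549 and of 31.32 and 33.2 in NCI-H358 at 238199_x_at, a 1.45-fold difference in A549 that stood just under 1.5-fold. ND6, the complex I subunit read from the strand opposite to that of the other mitochondrial genes here, had signals of 25.18 and 41.82 in A549 and of 30.16 and 30.57 in NCI-H358. Their log2 ratios of 0.53 and 0.73 in A549 stood beside those of the bright probe sets, and in NCI-H358 these 2 were the ones above 0, at 0.08 and 0.02. Nuclear copies of mitochondrial sequence exist in the human genome, and 6 of the 10 probe sets carry the suffix _s_at or _x_at, which marks probes shared with other transcripts. The 3 measured probe sets without such a suffix had log2 ratios of 0.78 (ND4), 0.73 (ND6) and 0.69 (COX2) in A549, so their median was the ND6 value. In A549, ND6 was under the filter with the empty vector (25.18) and counted as measured only through the CHST11 array (41.82).

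**Figure D1:**
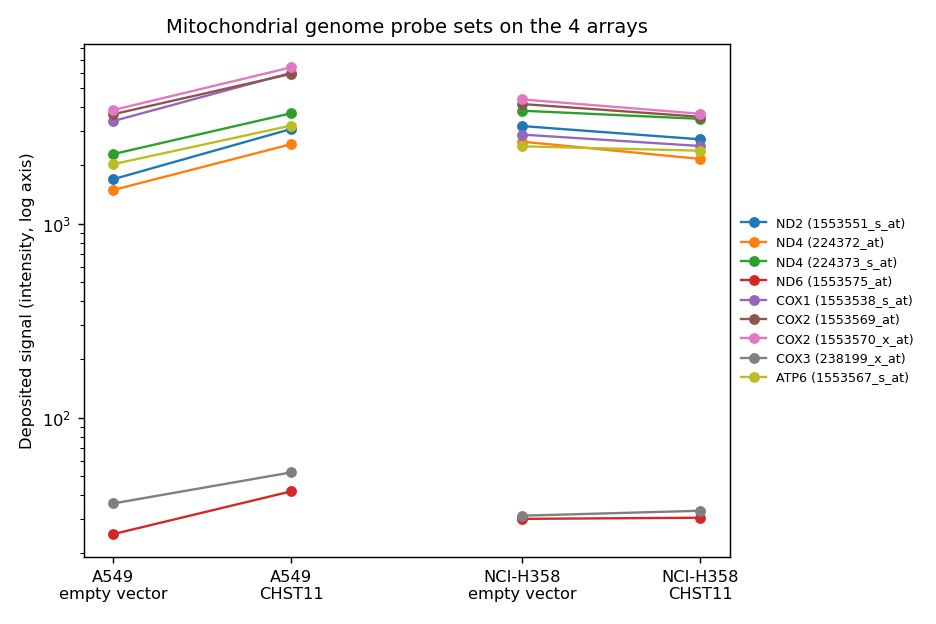
Deposited signal (log axis) of the 9 measured mitochondrial genome probe sets on the 4 arrays, 1 point per array, with lines joining the 2 arrays of a cell line. In A549 every line goes up from empty vector to CHST11, by log2 0.53 to 0.86, and in NCI-H358 the 7 bright ones go down by log2 0.08 to 0.30.

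By size, 8 of the 138 measured members were at least 1.5-fold higher with CHST11 in A549, all of them mitochondrial genome probe sets, and 0 were at least 1.5-fold lower. Over all 19676 measured probe sets 0.559% were at least 1.5-fold higher and 0.671% at least 1.5-fold lower. These counts rest on size without a test, and since this contrast led to the choice of members nothing is read from the member count. Ranked by ratio among these 19676, the 9 mitochondrial genome probe sets stood between the 17th place (ND2) and the 170th (COX3) from the top. Of the 1855 probe sets with a signal of at least 1000 in A549, 7 (0.377%) had a CHST11 signal 1.5-fold or more above the empty vector signal. These 7 were the bright probe sets of ND2, ND4, COX1, COX2 and ATP6. In NCI-H358 0.0535% of the probe sets that bright were 1.5-fold higher, which was 1 probe set, CHST11 itself. The threshold of 1000 was chosen after the values were seen. As the A549 contrast led to the choice of members, nothing is read from the ranks or from the 7 bright probe sets either. No member reached 2-fold in either line, where 0.0407% of probe sets were at least 2-fold higher and 0.061% at least 2-fold lower in A549, and 0.0459% and 0% in NCI-H358.

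In NCI-H358, 1 of 135 measured members was at least 1.5-fold higher with CHST11, against 1.06% of 19619 measured probe sets, and 0 were at least 1.5-fold lower, against 0.265%. It was NDUFAF7 at 230379_x_at, a methyltransferase that acts in complex I assembly, with signals of 36.57 and 57.17. Its other probe sets lay at log2 0.09 and -0.02 in that line, so the difference was seen at 1 of 3 probe sets.

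Measures of RNA integrity and length also differed between the A549 arrays, not all of them there alone. The log2 ratio of the 3′ to the 5′ control probe set of GAPDH was 1.40 on the A549 empty vector array and 1.10 on the A549 CHST11 array, against 1.10 and 1.13 in NCI-H358. For ACTB the values were 1.26, 1.10, 1.04 and 1.21. On both of these controls the A549 empty vector array thus had the highest ratio of the 4 arrays. From empty vector to CHST11 the GAPDH ratio moved by -0.30 in A549 and 0.03 in NCI-H358. The ACTB ratio moved by -0.17 in A549 and by as much the other way, 0.17, in NCI-H358. Among 53 measured genes of a list of long mRNAs, 52 lay below 0 in A549, with a median log2 ratio of -0.55 and a range of -1.06 to 0.02, and 24 were at least 1.5-fold lower, against 0.716% of all 11448 measured genes with 1 probe set each. In NCI-H358 the list had a median of 0.13, with 42 of 54 genes above 0. Of the A549 arrays, the one with the higher 3′ to 5′ ratios was thus the one with the higher long mRNA signals. The part of these measures in the mitochondrial genome ratios was not tested. The 18S ribosomal RNA control probe sets had log2 ratios of 0.10 to 0.21 in A549 and of -0.49 to -0.09 in NCI-H358, the same signs as the mitochondrial genome medians.

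The nuclear subunits of each complex had a median ratio near 0 between the vectors. In A549, 113 of 114 measured nuclear probe sets lay within 1.2-fold, against 86.5% of all measured probe sets, and in NCI-H358 108 of 112, against 83.4%. Many nuclear subunits are bright, and bright probe sets scattered less: of those with a signal of at least 1000, 98.3% lay within 1.2-fold in A549 and 94.2% in NCI-H358. Of the nuclear subunit probe sets this bright, 75 of 75 lay within 1.2-fold in A549 and 67 of 68 in NCI-H358, close to those shares. Complex II had 7 of 8 probe sets within 1.2-fold in A549 and 6 of 8 in NCI-H358, beside 86.5% and 83.4% of all measured probe sets. Those outside were all of 1 gene, SDHC, which gave 6 of the 8, so no trait of the complex is read from them. By complex, the A549 medians were 0.01 for I, 0.01 for II, 0.03 for III, -0.02 for IV and -0.04 for V, and the NCI-H358 medians -0.00, 0.07, -0.00, 0.00 and 0.00 in that order. No complex shared the A549 median of the mitochondrial genome, which was 0.76 over its complex I, 0.71 over its complex IV and 0.66 over its complex V probe sets.

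**Figure D2:**
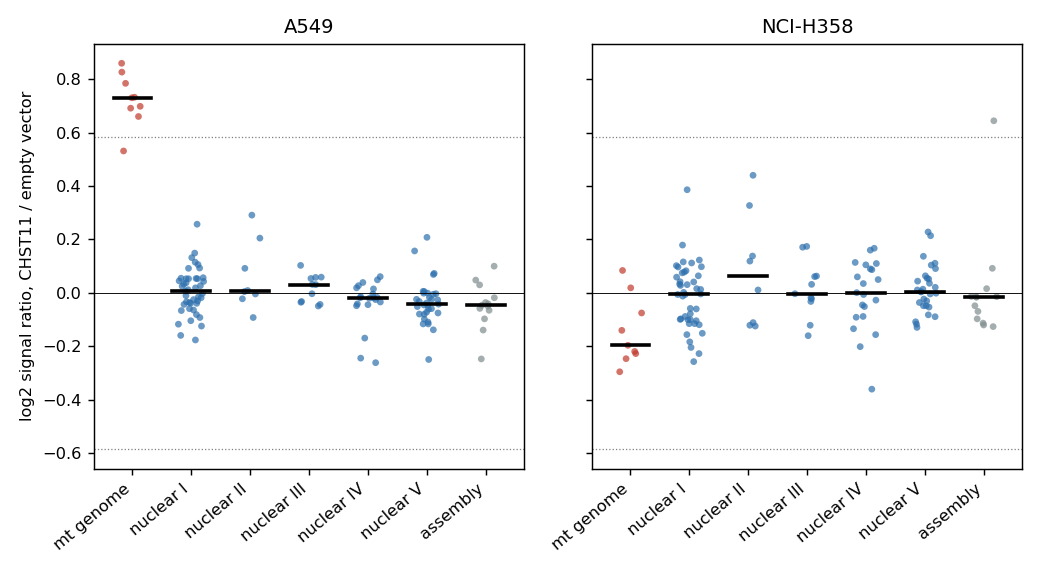
Log2 signal ratio of CHST11 over empty vector for each measured probe set (points) with the group median (black bar), by genome and complex, in A549 (left) and NCI-H358 (right); dotted lines mark 1.5-fold. The mitochondrial genome points lie at 0.53 and above in A549, while every nuclear group has its median within 0.04 of 0 there.

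Of the nuclear members with the widest ratios, some were dim probe sets or 1 of several measured for their gene. Others, such as NDUFB3 and UQCRC1, were neither. In complex I, NDUFB8, a membrane arm subunit, had log2 0.26 at 214241_at in A549 with signals of 41.03 and 49.03, but 0.05 and -0.03 at its brighter probe sets. NDUFB7, also of the membrane arm, had 0.15 in A549 and -0.26 in NCI-H358, NDUFB3 -0.16 and 0.10, and NDUFC1 -0.18 and -0.10 at 232146_at. NDUFA5, a subunit of the arm that takes electrons from NADH, had signals of 787.4 and 1029 in NCI-H358 (log2 0.39) and of 690 and 747 in A549 (0.12). NDUFS7, which carries an iron-sulfur cluster next to the ubiquinone site, had -0.23 in NCI-H358, and NDUFB6 0.18.

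In complex II, which oxidises succinate and has no mitochondrial genome subunit, SDHC had the highest values of both lines but at different probe sets. In A549 these were 0.29 at 216591_s_at and 0.21 at 210131_x_at, and in NCI-H358 0.44 at 238056_at and 0.33 at 238191_at. No SDHC probe set was beyond 1.2-fold in both lines. SDHA, the flavoprotein, had -0.00 and -0.12, and SDHD, a membrane anchor, -0.02 and 0.12. In complex III, UQCRC1, a core protein, had 0.10 in A549 and -0.16 in NCI-H358, UQCRB -0.05 and -0.00 at 209066_x_at and -0.03 and 0.17 at 209065_at, and UQCR10 0.06 and 0.17 at 228142_at.

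In complex IV, the lowest value in both lines was that of COX4I1 at the dim probe set 213758_at (-0.26 and -0.36, signals of 43.5 and 36.31 in A549 and of 62.73 and 48.87 in NCI-H358). Its bright probe sets, with signals of 3316 to 5553, lay at -0.03 and -0.03 in A549 and at 0.04 and -0.05 in NCI-H358, so the difference did not extend to them. COX7C had 0.17 at 217491_x_at and COX7A2 0.16 in NCI-H358. In complex V, ATP5F1D, the delta subunit of the rotor stalk, had 0.21 at 213041_s_at in A549 and -0.12 in NCI-H358, and ATP5F1E, the epsilon subunit, -0.05 and 0.23. ATP5MC2, one of the genes for the proton-carrying c subunit, had 0.16 and 0.02. Each of these lay within 1.2-fold save COX4I1 in NCI-H358.

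**Figure D3:**
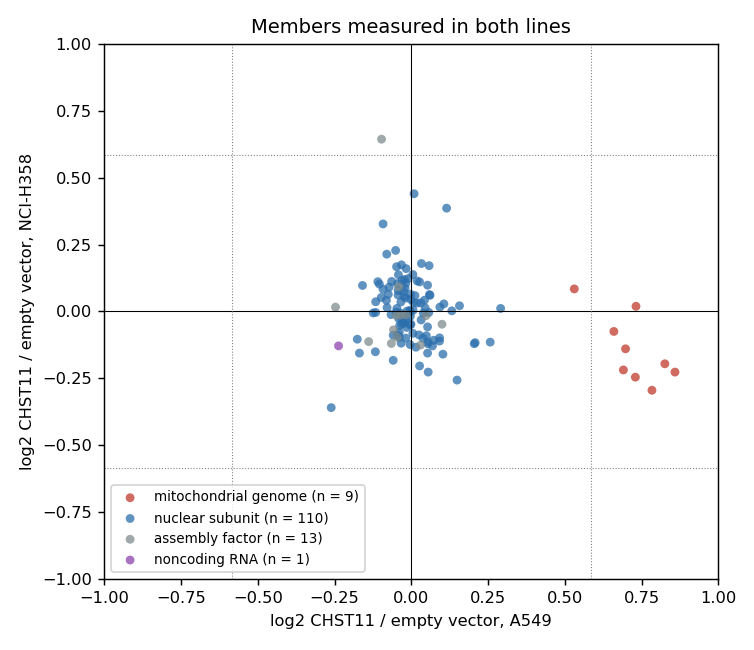
Log2 ratio of CHST11 over empty vector in A549 (x axis) against that in NCI-H358 (y axis) for the 133 members measured in both lines, coloured by class; dotted lines mark 1.5-fold. The 9 mitochondrial genome probe sets form the group at the right, between 0.53 and 0.86 in A549 and between -0.30 and 0.08 in NCI-H358, apart from the nuclear subunits near 0.

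When the cell lines were taken as repeats of the vector contrast, no member passed. The limma fit with a term for cell line called 0 of 140 members and 0 of 21352 probe sets tested at an adjusted p of 0.05, with 1 member and 648 probe sets (3.03%) at an unadjusted p under 0.05, and limma with a trend on mean signal also called 0 members. The mitochondrial genome probe sets had fitted shared differences of log2 0.24 to 0.38 with standard errors of 0.14 to 0.27. The lines had opposite signs at 7 of 9. Whether the lines differed in response could not be tested, as it is the error term of this fit.

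The comparison of the cell lines themselves did not enter the choice of members, and it was tested with 2 arrays per line, 1 of each vector. Its error term is the gap between the vector ratios of the 2 lines, which includes the A549 ratios that led to the choice. At an adjusted p of 0.05, limma called 71 of 140 tested members (50.7%), 24 higher and 47 lower in NCI-H358. Over all 21352 probe sets tested the same fit called 63.2%, with 33.1% higher and 30.1% lower in NCI-H358. Of the 116 nuclear subunit probe sets, 22 were higher and 38 lower in NCI-H358, with a median log2 difference of -0.09 against 0.03 over all probe sets tested. The share of members called was below that of all probe sets here, and the order turned under limma with a trend (67.1% of members against 66.0%) and with no filter (6.01% against 2.49%). Of the tested members 133 were measured in both lines, 5 in A549 alone and 2 in NCI-H358 alone, and a member measured in 1 line alone passed the filter through the line where it was high. Among all 21352 probe sets tested, 1733 were measured in A549 alone and 1676 in NCI-H358 alone, a larger part than among the members. The counts above include such probe sets, so the shares called compare unlike sets.

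Of the 9 mitochondrial genome probe sets 1 was called between the lines, and their fitted differences ran from -0.74 to 0.37. Their standard errors were wider than those of the nuclear subunits, with medians of 0.23 and 0.10. These errors come from the gap between the A549 and NCI-H358 ratios, and the A549 ratios were known when the genes were chosen. For these 9 probe sets the fit and its p-values are therefore a description. COX3 passed (log2 -0.43 in NCI-H358 relative to A549, SE 0.14, limma adjusted p = 0.045), and it lost the call without the A549 CHST11 array, at -0.17 and limma adjusted p = 0.198, and when either NCI-H358 array was left out, at limma adjusted p = 0.401 and 0.332. COX3 also lost it under the other floors (limma adjusted p = 0.0519 and 0.0552) and with no filter (limma adjusted p = 0.485). COX1 had -0.74 (SE 0.25, limma adjusted p = 0.052). COX1 passed under quantile normalization, median centring, cyclic loess, the filter at the 75th percentile and limma with a trend (limma adjusted p = 0.0167 to 0.0432), and without the A549 empty vector array (-1.16, limma adjusted p = 0.0344). It did not pass under the other floors, with no filter, with 1 probe set per gene or without any other array (limma adjusted p = 0.0569 to 0.616). The other 7 had adjusted p from 0.242 to 0.792 with SE of 0.19 to 0.27. The order of the lines turned with the vector: between the empty vector arrays 7 of 9 probe sets were higher in NCI-H358, by log2 0.17 to 0.91, and between the CHST11 arrays 9 of 9 were lower there, at log2 -1.25 to -0.10. In the fit ND2 and ND4 had values of 0.29 to 0.37, ND6 of -0.10, ATP6 of -0.06 and COX2 of -0.31 and -0.28, none of which passed.

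The widest difference of any member was that of COX7B2, a form of the complex IV subunit 7B known from testis. Its signals were 6.335 and 6.561 in A549 and 1462 and 1556 in NCI-H358, with the empty and the CHST11 vector. Both A549 arrays were under the filter, and against the filter the signal was at least 55.9-fold higher in NCI-H358. It entered the fit through NCI-H358 alone, so no test is given for it. The general form COX7B was bright in both lines, at 5148 and 5084 in A549 and 3930 and 4228 in NCI-H358 at 202110_at, log2 -0.33 (SE 0.10, limma adjusted p = 0.0377). At its dim probe set 239252_at COX7B had 91.11 and 76.91 in A549 and 15.63 and 15.09 in NCI-H358, at least 3.1-fold higher in A549. NCI-H358 thus carried signal for both forms of the subunit and A549 for COX7B. The other testis form measured, COX6B2, had signals of 18.86 and 22.19 in A549 and of 36.7 and 31.92 in NCI-H358, at least 1.27-fold higher there, and its general form COX6B1 had 4249 and 4366 against 2361 and 2351 (log2 -0.87, SE 0.10, limma adjusted p = 0.00141). COX6B2, like COX7B2, was measured in NCI-H358 alone.

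UQCRC2, a core protein of complex III, was the lowest in NCI-H358. At 200883_at its signals were 1697 and 1769 in A549 and 282.5 and 295.1 in NCI-H358, a 6.0-fold difference (log2 -2.59, SE 0.10, limma adjusted p = 7.36e-05). At 212600_s_at they were 2168 and 2216 against 433.2 and 423.7, 5.12-fold (log2 -2.36, SE 0.10, limma adjusted p = 9.53e-05). The arrays of the lines did not overlap at either probe set, but with 2 arrays per line this adds little. How many other probe sets did the same was not counted, and limma called 63.2% of all probe sets tested. Its partner core protein UQCRC1 had 1764 and 1894 against 2276 and 2037, log2 0.24 (SE 0.11, limma adjusted p = 0.126). The small subunits UQCRQ (0.27, limma adjusted p = 0.0584) and UQCRB (-0.20 to 0.09 over 3 probe sets) did not pass either, UQCR10 passed at 1 of 2 probe sets (0.74 and 0.28) and UQCR11 at 1 of 2 (-0.76 and -0.22), so of the complex III genes UQCRC2 was the 1 called at every measured probe set.

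ATP synthase held members on both sides. ATP5ME, the e subunit that helps synthase dimers form, had signals of 1978 and 1918 in A549 and of 4893 and 5260 in NCI-H358 at 209492_x_at, 2.6-fold higher in NCI-H358 (log2 1.38, SE 0.10, limma adjusted p = 0.000431). At 207335_x_at it was 2.54-fold higher. ATP5IF1, the protein that inhibits ATP hydrolysis by the enzyme, was higher in NCI-H358 at all 3 probe sets, by log2 0.78 to 1.41, and ATP5MG, the g subunit, at 3 of 4, by 0.54 to 0.64, while 208745_at lay at -0.09.

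Lower in NCI-H358 were ATP5F1C, the gamma subunit that forms the turning shaft, at its 3 bright probe sets (log2 -1.13 at each), and ATP5MC1, a c subunit gene, with 1825 and 1831 against 764.9 and 722.8 (log2 -1.30, SE 0.10, limma adjusted p = 0.000458). The c subunit is also made from ATP5MC2 (-0.47, limma adjusted p = 0.0124) and ATP5MC3 (-0.44 at 207508_at, limma adjusted p = 0.0143, and -0.26 at 207507_s_at, limma adjusted p = 0.0645). All 3 genes for this identical mature protein therefore had signs below 0, and at the bright probe sets ATP5MC1 had the widest difference. The dim probe sets 228168_at of ATP5MC3 and 214132_at of ATP5F1C were measured in A549 alone, at least 2.15-fold and at least 1.32-fold higher there.

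In complex I, 7 of 43 probe sets were higher and 15 lower in NCI-H358, where 33.1% of all probe sets tested were higher and 30.1% lower. NDUFA9, a subunit at the junction of both arms, was 2.02-fold lower there, with 1067 and 1043 against 543.1 and 500.3 (log2 -1.02, SE 0.10, limma adjusted p = 0.000931). NDUFB8 (-0.83 at both bright probe sets), NDUFB6 (-0.80) and NDUFS3 (-0.79), a core subunit of the peripheral arm, were also lower, and NDUFA6 was the highest, at 0.59 and 0.36. In complex II, SDHD had 678.6 and 668.3 against 1017 and 1104 (log2 0.65, SE 0.10, limma adjusted p = 0.00418). SDHA had -0.26 (limma adjusted p = 0.0733), and SDHC passed at 2 of 6 tested probe sets in opposite directions (0.36 and -0.55), so its line difference was not settled.

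In complex IV, 4 of 22 probe sets were higher and 6 lower, where 33.1% of all probe sets tested were higher and 30.1% lower. Those higher include COX7B2 and COX6B2, and those lower COX7B at 239252_at. Each of these passed the filter only through the line where it was high, so nothing is read from these counts. COX5A was lower at both probe sets (-0.39 and -1.21), COX7A2L, which takes part in joining complexes into supercomplexes, had -0.41 (SE 0.10, limma adjusted p = 0.0164) and COX8A 0.36 (SE 0.10, limma adjusted p = 0.026). COX4I1 at its bright probe sets (-0.04 and 0.00), COX6A1 (0.16) and COX7A2 (-0.23) did not pass, with standard errors of 0.10. Of the assembly factors, NDUFAF1 (-0.74) and NDUFAF5 (-0.74 and -0.73), NDUFAF7 at all 3 probe sets (-0.69 to -0.38) and NDUFAF4 at 1 of 2 (-0.65) were lower, and NDUFAF6 at 235509_at (0.58) and NDUFAF8 (0.35) higher, in all 7 probe sets lower and 2 higher of 13. Over members with several tested probe sets, 26 of 34 genes had the same sign at all of them.

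**Figure D4:**
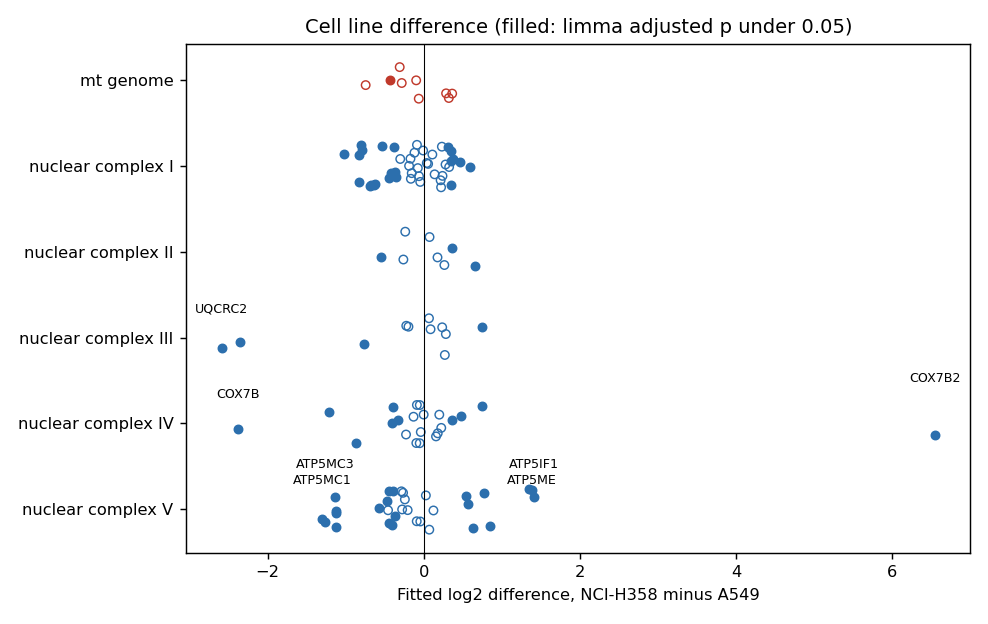
Fitted log2 difference of NCI-H358 minus A549 for each tested mitochondrial genome and nuclear subunit probe set, by genome and complex; filled points passed limma at an adjusted p of 0.05 and open points did not. COX7B2, at the floor in A549, lies far to the right and both UQCRC2 probe sets far to the left at -2.59 and -2.36, while the mitochondrial genome probe sets stay between -0.74 and 0.37.

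The promoters of COX7B2, UQCRC2 and ATP5ME are printed because these 3 nuclear subunit genes had the widest line differences when a gene was taken at the measured probe set with its smallest difference. Each is 250 bases before and 50 after the start given by RefSeq on GRCh38.p14, 5′ to 3′ on the gene's strand: COX7B2 at chr4:46909196-46909495 (minus strand), UQCRC2 at chr16:21953111-21953410 (plus strand) and ATP5ME at chr4:674227-674526 (minus strand). Capitals mark matches to motifs of 3 factors known from nuclear respiratory genes, searched on both strands: GCGCA followed by any base and GCGC for NRF1, CCGGAAG for GABPA and AAGATGGCG for YY1.
COX7B2: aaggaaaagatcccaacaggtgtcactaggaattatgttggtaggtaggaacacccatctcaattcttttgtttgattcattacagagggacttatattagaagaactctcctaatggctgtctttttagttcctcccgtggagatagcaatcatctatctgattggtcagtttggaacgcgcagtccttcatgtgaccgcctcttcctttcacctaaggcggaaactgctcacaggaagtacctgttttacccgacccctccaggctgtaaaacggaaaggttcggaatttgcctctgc
UQCRC2: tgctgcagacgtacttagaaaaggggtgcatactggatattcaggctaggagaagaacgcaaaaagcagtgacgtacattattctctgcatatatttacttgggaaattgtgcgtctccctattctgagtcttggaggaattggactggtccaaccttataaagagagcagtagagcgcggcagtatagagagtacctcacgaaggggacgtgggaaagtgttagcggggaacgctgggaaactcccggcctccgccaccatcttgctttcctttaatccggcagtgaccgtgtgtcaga
ATP5ME: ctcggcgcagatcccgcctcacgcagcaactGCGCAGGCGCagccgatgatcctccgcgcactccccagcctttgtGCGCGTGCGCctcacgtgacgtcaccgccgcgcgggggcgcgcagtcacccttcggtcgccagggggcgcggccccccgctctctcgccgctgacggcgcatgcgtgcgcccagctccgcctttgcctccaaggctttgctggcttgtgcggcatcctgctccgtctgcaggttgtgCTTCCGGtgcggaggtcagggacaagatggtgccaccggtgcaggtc
The ATP5ME window held 2 NRF1 matches and 1 GABPA match, and those of UQCRC2 and COX7B2 held none of the 3 motifs. The COX7B2 window had 8 CpG pairs, that of UQCRC2 14 and that of ATP5ME 37, against a median of 14 over 27305 promoters. Of the 77 nuclear subunit genes 66 matched a promoter by symbol: 24.2% of them held the NRF1 motif, 27.3% the GABPA motif and 10.6% the YY1 motif, and 53.0% held at least 1. Over all 27305 promoters the shares were 6.28%, 10.7%, 1.85% and 17.0%. The GABPA and YY1 motifs have AAG in common, so a stretch can match both and a promoter counts under each motif it holds. The median CpG count of the 66 was 23.

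Of 26 measured genes of mitochondrial transcription and RNA handling, 20 lay below 0 in A549, where 5183 of all 11448 genes did, with 1 probe set each. Their log2 ratios there were small, from -0.17 to 0.07, beside a probe set SD of 0.158. The median was -0.04, against 0.01 over all genes, and 13 of 26 lay below 0 in NCI-H358. TFAM, which packages mitochondrial DNA and starts its transcription, had signals of 854.1 and 830.8 in A549 and of 693.5 and 812.9 in NCI-H358, log2 ratios of -0.04 and 0.23. POLRMT, the mitochondrial RNA polymerase, had 0.04 and -0.29, LRPPRC, which stabilises mitochondrial messages, -0.10 and 0.02, and its partner SLIRP -0.04 and -0.03. TFB1M, a ribosomal RNA methyltransferase, had -0.07 and -0.23, and the poly(A) polymerase MTPAP -0.04 and 0.24. FASTKD5 (-0.06 and -0.19) and FASTKD3 (-0.01 and 0.27) belong to a family that acts on mitochondrial messages. None of the 26 was 1.5-fold apart in either line, a size that 0.489% of genes reached upward and 0.716% downward in A549, so a list this short would seldom hold one.

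The further lists lay near 0 as well. In A549 and NCI-H358 the medians were -0.04 and -0.01 for 18 genes of mitochondrial DNA maintenance, 0.01 and 0.01 for 12 and 11 regulators of biogenesis, -0.00 and -0.07 for 48 genes of the large and 0.02 and -0.07 for 29 of the small mitochondrial ribosomal subunit. They were 0.05 and -0.04 for 18 complex I assembly factors, 8 of which are NDUFAF members, and -0.01 and -0.02 for 31 assembly factors of the other complexes. For the 19 genes listed as electron carriers and entry points, ubiquinone synthesis genes among them, they were -0.03 and -0.09. At 1.5-fold none of these lists had a gene, against 0.489% of genes higher and 0.716% lower in A549, and 0.895% higher and 0.272% lower in NCI-H358. Among the genes at either end of their lists were SDHAF4, a complex II assembly factor, at 0.50 and 0.33, RRM2B, a ribonucleotide reductase subunit, at -0.07 and 0.54, GABPA, the factor of the motif above, at 0.10 and 0.42, and PPARGC1B, a coactivator of mitochondrial biogenesis, at -0.29 and -0.16.

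**Figure D5:**
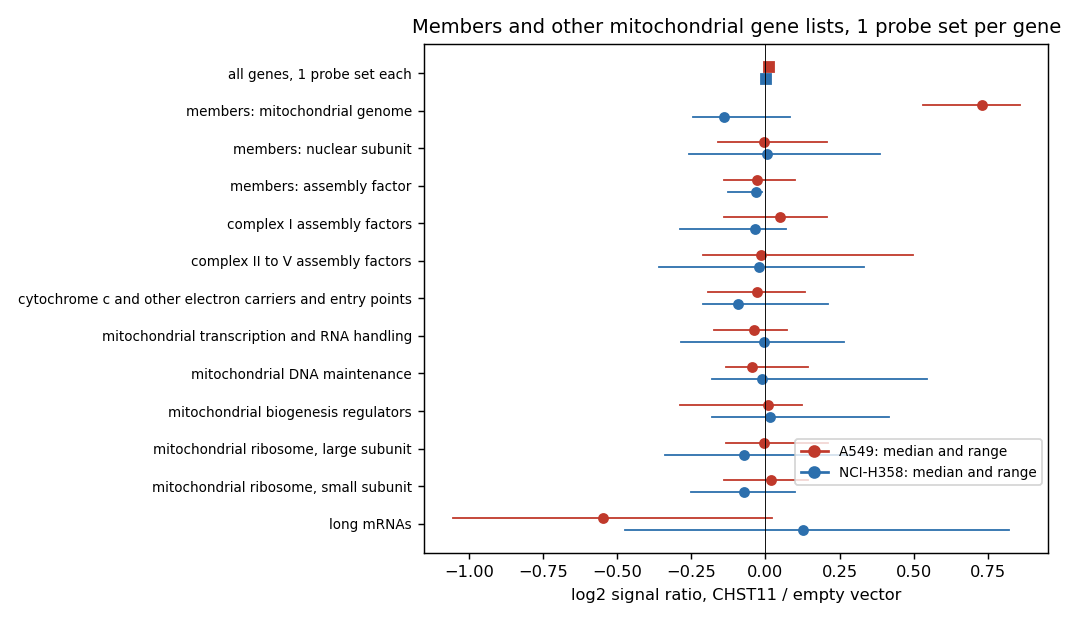
Median (point) and range (line) of log2 ratios of CHST11 over empty vector, 1 probe set per gene, in A549 (red) and NCI-H358 (blue), for the members, other mitochondrial gene lists and long mRNAs; squares give the median of all genes. The mitochondrial genome in A549 (median 0.73) and the long mRNAs in A549 (median -0.55) stand away from 0 on opposite sides.

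Between the lines, the list of electron carriers and entry points, which also holds ubiquinone synthesis genes, was mostly lower in NCI-H358. Of 19 genes on that list limma called 14 lower and 1 higher in NCI-H358, with 30% of all genes lower and 33.2% higher by the same fit. SQOR, which feeds electrons from sulfide to ubiquinone, had signals of 859.9 and 861.2 in A549 and of 89.24 and 80.27 in NCI-H358 (log2 -3.35, limma adjusted p = 4.63e-05). ETFA (-1.56) and ETFDH (-1.14), which pass electrons from fatty acid oxidation, and the ubiquinone synthesis genes PDSS2 (-1.81) and COQ5 (-1.19) were lower too, and COQ4 (0.58) was the gene called higher. CYCS, cytochrome c, had 4728 and 4692 against 2599 and 3007 (-0.75, limma adjusted p = 0.0033). CYC1 (-0.09, limma adjusted p = 0.489) and GPD2 (0.11, limma adjusted p = 0.465), of the same list, were not called. In the transcription and RNA handling list 2 of 26 were called higher and 8 lower, POLRMT among them (-1.01, limma adjusted p = 0.00179), while TFAM had -0.17 (limma adjusted p = 0.255). PPARGC1A, a coactivator of mitochondrial biogenesis, had 81.55 and 68.17 in A549 and was not measured in NCI-H358 (8.102 and 11.65).

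Genes most like the mitochondrial genome over the 4 arrays were found by the distance between centred log2 profiles among 10565 other genes measured in both lines. The nearest 5 were OSER1-DT, SETDB2, ESCO2, MMD and OLMALINC, at distances of 0.13 to 0.20. Their log2 ratios were 0.45 to 0.60 in A549 and -0.15 to 0.07 in NCI-H358, beside 0.71 and -0.04 for the median profile. The profile takes the median array by array, so it differs from the median ratios of 0.73 and -0.20. MMD was the 1 bright gene among the 5, with signals of 1065, 1491, 1218 and 1139. In A549, SETDB2 (23.02) and OLMALINC (26.95) were under the filter of 27 with the empty vector and counted as measured only through the CHST11 array. The genes were picked for closeness to a profile that holds the known A549 ratios, so nothing is read from their ratios.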

How the data were processed

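RNA from 4 cultures was hybridised to 1-colour arrays. The authors deposited linear intensities, made with MAS5 per the submitters' processing notes. Its version and scaling, and any later normalization, are not stated in the sources read here. From the deposited intensities, values were floored at the 50th percentile (16.14) and log2 was taken. Members, gene lists and tests were chosen with earlier results of these data known. Gene symbols came from the platform annotation, which gave 1 symbol for 41091 probe sets; the 1801 with several, 16 of them with a symbol that fits the membership rule, and the 11721 with none named no gene. Of the 62 control probe sets some were used for RNA quality, and 1 control is not reported here. Probe sets were the unit for members; for lists, each gene was represented by its brightest probe set on average.

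The cell line and shared vector differences came from a limma fit (version 3.58.1, R 4.3.3, lmFit, eBayes, terms for cell line and vector, 1 residual degree of freedom, prior 3.82) over 21352 probe sets measured in at least 1 line, with Benjamini-Hochberg adjustment. In 20 simulations with 200 probe sets changed by log2 1, the fit recovered 56.4% for the cell line and 65.3% for the vector. On average it called 8.45 and 10.8 unchanged ones. The simulated spread came from the fitted prior, so it does not test that prior. In the data 63.2% of the probe sets tested were called between the lines, and the adjusted p depends on that share. The 56.4% therefore does not give the share that the real line comparison would recover. The simulated vector change was the same in both lines, unlike the ratios of the mitochondrial genome. A member that did not pass can still differ. The spread in the line comparison is that between cultures of different vectors. Folds of members below the filter on both arrays of a line were computed with those arrays raised to it. Plots and tables were made with Python 3.11.15, pandas 2.3.3 and matplotlib 3.10.9. Alternatives were 3 normalizations, 2 floors, 2 filters, 2 choices of probe sets, a trend and leaving out arrays. Text names all mitochondrial genome probe sets; members at least 1.5-fold apart; the 2 highest and 2 lowest of each complex per line, of which those with a described function are printed; the widest line differences; paired isoforms; SDH genes; and examples from the lists, some of which (TFAM, POLRMT, LRPPRC, SLIRP, SQOR, ETFA, ETFDH, COQ5 and PPARGC1A) were picked after their values were seen.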

Additional observations from a re-analysis of the deposited data

Results flagged for a closer look

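At 7 mitochondrial genome probe sets the CHST11 ratio had opposite signs in the lines and was at least 1.5-fold in A549. The log2 ratio in A549 minus that in NCI-H358 was 1.09 for ND2, 1.08 and 0.84 for the 2 probe sets of ND4, 1.02 for COX1, 0.91 and 0.98 for the 2 of COX2, and 0.74 for ATP6. NDUFAF7 at 230379_x_at differed the other way, by -0.74, with its 1.5-fold difference in NCI-H358. Each line gave 1 ratio, so these differences between the lines were not tested.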

How the results depend on the processing

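The count of members at least 1.5-fold apart in A549 stayed at 6 to 8 under the normalizations, floors, filters and 1 probe set per gene, and was 3 without _x_at and _s_at probe sets, where 3 mitochondrial genome probe sets were left to be measured. Single A549 ratios of mitochondrial genome probe sets ran from 0.52 to 0.88 over these settings. The NCI-H358 count was 0 with the stricter filter, with 1 probe set per gene and without _x_at and _s_at probe sets, each of which leaves out the NDUFAF7 probe set. Medians of both genomes moved by less than the probe set SD in both lines, and the nuclear A549 median ran from -0.03 to 0.00. The shared vector difference had 0 members called under each setting run. The count of members called between lines was 71 of 140 (50.7%, against 63.2% of all probe sets). With 1 probe set per gene it was 45 of 89 (50.6%, against 64.5%). Without _x_at and _s_at probe sets it was 35 of 67 (52.2%, against 63.7%). Leaving out 1 array leaves a line with 1 array, so no count is given for those fits. Under limma with a trend the count was 94 of 140 (67.1%, against 66.0% of all probe sets). It was 11 of 183 with no filter (6.01%, against 2.49% of all 41091 probe sets). With no filter 15454 probe sets had 1 value on all arrays; the cause of the low count was not tested. Of 713 line differences of named probe sets under alternatives 615 kept their side of the threshold or their size, 54 lost and 18 gained a call, 26 values with no test moved, and 0 called ones changed sign. No replicate number pairs the arrays, since each group held 1, and the shared vector fit already sets the arrays of a line against each other. Dim probe sets such as ND6 and COX3 lay close to the filter of 27.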
